A study of Mus musculus with 12 samples.

Results

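Berberine (BBR), given to mice without colitis, was compared with no BBR in 6 of the 12 mice of the study, taken by their labels. They were the 3 normal mice receiving BBR and the 3 normal mice, numbered 1, 3 and 4 in both groups, all C57BL/6. The labels call them day 7 samples of colorectum and give the treated mice BBR by gavage for 6 days, whereas the methods describe adult males, rectal samples and a further day of BBR. None of the 6 mice had received dextran sulfate sodium, the polymer used in the other 6 mice to injure the bowel lining. Those 6 were 3 colitis mice, given the polymer for 7 days, and 3 colitis mice receiving BBR, and they entered the filter on low genes, the estimate of the spread and the comparison of BBR between normal and colitis mice. Expression was deposited as 1 value per gene and mouse, read as FPKM, that is reads per transcript length and sequencing depth.

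BBR is a plant isoquinoline alkaloid that is poorly absorbed, so that the bowel lining meets it at a high level after gavage. In cultured cells it is known to inhibit respiratory complex I and to activate the energy sensor AMPK. The bowel lining itself renews within days from dividing cells at the base of the crypts. A circadian clock, in which the activators Arntl, Clock and Npas2 switch on their own repressors, the Per and Cry genes, runs in its cells.

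The tissue carried the genes of colonic lining. Epcam, an epithelial adhesion molecule, was at 788.12 to 1153.56 FPKM, Car1, a colonocyte carbonic anhydrase, at 2139.24 to 5432.28 FPKM and Muc2, the main mucin of goblet cells, at 415.2 to 581.4 FPKM over the 6 mice. Among keratin genes of squamous epithelium, which adjoins the rectum, Krt5 was at most 0.12 FPKM, Krt13 at 0.21 to 1.21 FPKM and Krt14 at 0.72 to 1.47 FPKM. Other squamous genes were higher, and the 16 tested ones summed to 197, 108 and 109 FPKM in normal mice 1, 3 and 4. With BBR the sums were 349, 164 and 91.0 FPKM, highest in BBR mouse 1. Of these 16 genes, 2 met the unadjusted P limit of 0.05. Krt16, listed at 0 in each normal mouse, was at 0.16, 0.1 and 0.29 FPKM with BBR, and Krt15 was at 0.54, 0.45 and 0.57 FPKM and at 0.32, 0.09 and 0.31 FPKM. Krt15 lost the limit without BBR mouse 3, where its log2 difference went from −0.95 to −0.57, and without any 1 normal mouse, at −1.03 to −0.89. S100a8, a neutrophil gene that marks inflamed bowel, was listed at 0 in all 6 mice. The mice numbered 4 stood apart in both groups, with column totals of 482194 and 488982 and 872 to 943 genes at 0, against totals of 696286 to 725372 and 1401 to 1722 genes at 0 in the other 4. Read counts are not in the table. Steps between low values put 3 reads on a transcript of 2000 bases at about 0.0810 to 0.114 FPKM, which covers counting error only. These floors rest on weak steps and are approximate.

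A gene was tested if it averaged 0.1 FPKM or more over the 12 mice, and of these 15315 genes 0 (0%) had an adjusted p under 0.05 between the groups by limma with Benjamini-Hochberg adjustment, and the smallest adjusted p was 1.00. At the limit named in the methods, an unadjusted P no larger than 0.05, 79 genes (0.516%) were higher and 129 (0.842%) lower with BBR. With the replicate number as a block these counts were 148 and 244, again with 0 adjusted calls. The spread was shared with the colitis mice, whose values varied more (median SD of log2 values 0.46 and 0.50, against 0.28 and 0.31 in the normal groups). In a limma fit of the 6 normal mice alone 221 genes (1.44%) were higher and 531 (3.47%) lower at that P, and 1 gene passed the adjusted limit. All 3 treated mice lay above all 3 untreated mice for 638 genes (4.17%), and below them for 836 (5.46%). For every such gene the two-sided exact permutation test gives p = 0.1, the smallest value that groups of this size allow. It is also the share of genes that such groups would separate, in either direction, if none differed. The median log2 difference of all genes was −0.02. Below, a gene that met the limit had an unadjusted limma P of at most 0.05 in the fit over the 12 mice unless another fit is named. A log2 difference printed with its SE is that of a gene that met the limit unless said otherwise, and the adjusted p in that fit was 1.00 for each. Without BBR mouse 1 or normal mouse 1, 94 or 116 genes met the limit instead of 208.

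Genes of dividing cells were lower with BBR, and of the 62 lists compared the mitosis list had the lowest median. Of 65 tested genes of mitosis and the spindle, 64 had a lower mean with BBR, with a median log2 difference of −1.21, a ratio of 0.431. Of 56 DNA replication genes 55 were lower, with a median of −0.69, and of 50 DNA repair genes 45 were lower, with a median of −0.46. At P of at most 0.05, 7 mitosis, 6 replication and 2 repair genes were lower and 0 were higher. With the replicate block these were 18, 12 and 7, and in the fit of the 6 mice alone 53 of 65 (81.5%), 28 of 56 and 17 of 50 (34.0%). The groups did not overlap for 29 mitosis genes (44.6%), 29 replication genes (51.8%) and 18 repair genes (36.0%), all lower, and for 1 repair gene that was higher.

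**Figure D1:**
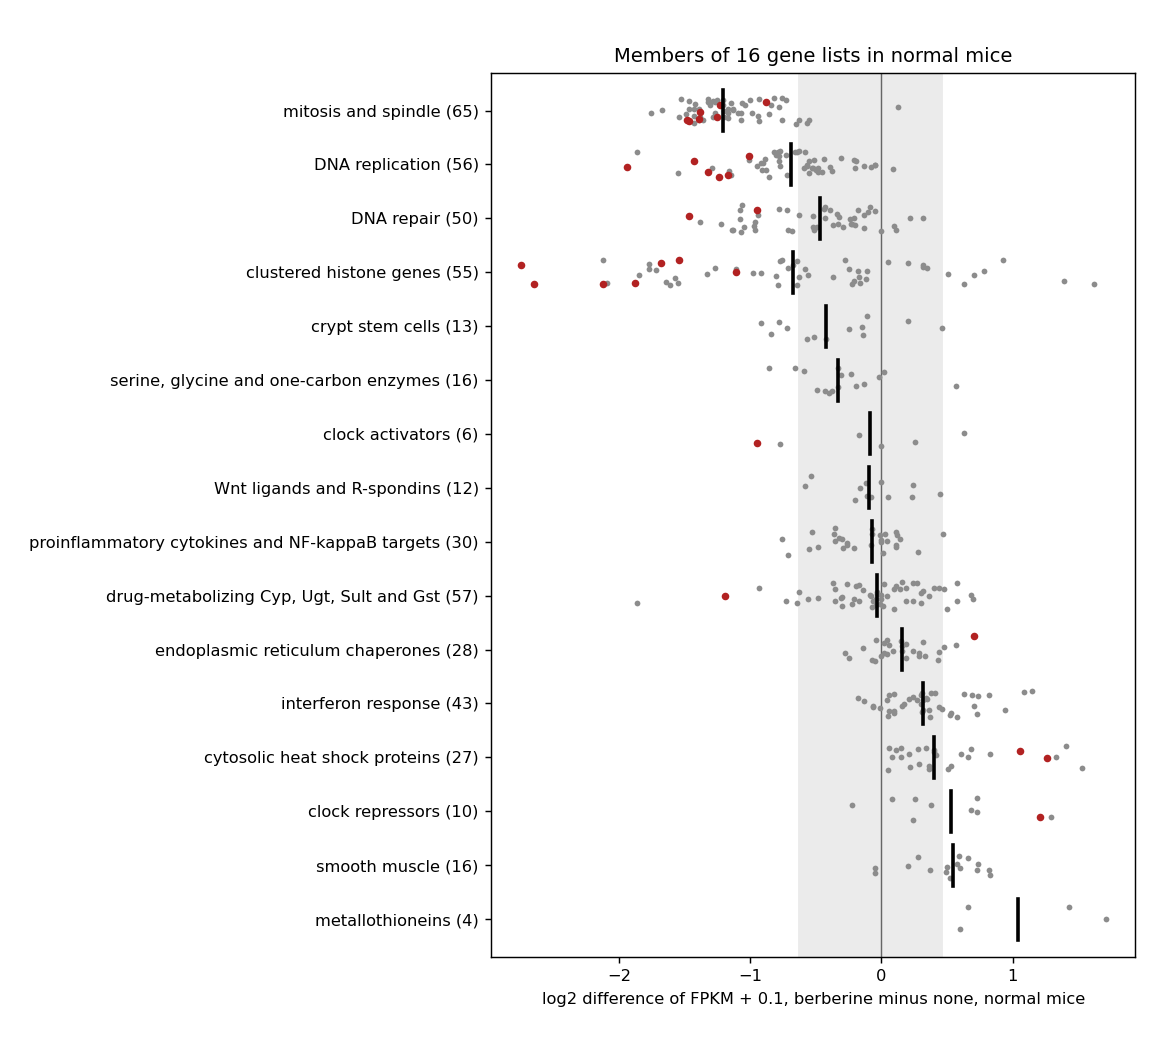
Log2 difference of FPKM + 0.1 between normal mice with and without BBR, 1 point per tested member of 16 gene lists, with the number of members in brackets. Red points had an unadjusted limma P of at most 0.05, black bars are list medians, and the grey band from −0.63 to 0.46 holds 90% of all tested genes. The mitosis list lies almost whole to the left of the band, with a median of −1.21, while the list of cytosolic heat shock proteins has no member below 0.

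Among the initiators of replication, E2f2, a transcription factor that switches on S-phase genes, was at 4.33, 1.4 and 3.76 FPKM in normal mice 1, 3 and 4 and at 0.43, 1.1 and 0.62 FPKM in those receiving BBR. The groups did not overlap, and the log2 difference was −1.94 (SE 0.62). Mcm10, which helps the replicative helicase to start, was at 2.77, 2.31 and 2.25 FPKM without BBR and at 0.78, 1.37 and 1 FPKM with it, a difference of −1.17 (SE 0.50). Every BBR mouse lay below every normal mouse for this gene too. Chaf1a, a subunit of the chaperone that puts histones on new DNA, was at 2.15, 2.58 and 2.49 FPKM and at 0.87, 1.19 and 0.84 FPKM (−1.24, SE 0.57). Rrm2, the regulated subunit of ribonucleotide reductase, was at 4.03 ± 1.05 and 1.45 ± 0.465 FPKM (SD, n = 3 each), with no overlap. By contrast Pcna, the sliding clamp of DNA polymerase, was at 65.8 ± 13.1 and 61.1 ± 17.5 FPKM and overlapped. E2f2 met the limit whichever mouse was left out. Chaf1a and Rrm2 lost it without any 1 of the 6 mice, at −1.39 to −1.16 and −1.65 to −1.15, and Mcm10 without any but BBR mouse 3, at −1.23 to −0.99.

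For mitosis itself, Espl1, the protease that parts sister chromatids, was at 1.11, 0.65 and 1.7 FPKM in normal mice and at 0.28, 0.49 and 0.24 FPKM with BBR (−1.47, SE 0.66). Kif20a, a kinesin of the dividing cell's midzone, was at 6.75, 4.61 and 7.63 FPKM and at 1.95, 3.61 and 1.74 FPKM (−1.39, SE 0.60). Normal mouse 3 was the lowest of the untreated mice and BBR mouse 3 the highest of the treated mice for both genes. Mki67, the Ki-67 antigen, followed the same order, at 17.28, 9.44 and 20.91 FPKM against 7.06, 9.08 and 5 FPKM, but met the limit in the fit of the 6 mice only. Cdk1, the kinase that starts mitosis, was at 4.99 ± 1.45 and 2.12 ± 0.901 FPKM (SD, n = 3 each), without overlap, and likewise met the limit in the 6 mice only. Espl1 and Kif20a no longer met it without normal mouse 1, normal mouse 4, BBR mouse 1 or BBR mouse 4, at −1.45 to −1.17 and −1.32 to −1.19.

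Read by mouse number, the lower mitosis values came from the mice numbered 1 and 4. Correlations across genes did not pair mouse 1 with 1 or mouse 3 with 3, so this split follows the labels alone. The median log2 difference of the mitosis list was −1.51 between the mice numbered 1, −0.03 between those numbered 3 and −2.16 between those numbered 4. Relative to the normal mice, the mean log2 level of these genes was 0.22, −0.64 and 0.43 in normal mice 1, 3 and 4 and −1.24, −0.66 and −1.55 with BBR, so that the mice numbered 3 lay next to each other. For replication genes the normal mice lay close together, at 0.05, −0.05 and 0.00, and the mice receiving BBR at −0.77, −0.34 and −1.07, all below. The replication median was −0.76, −0.28 and −1.05 for the 3 numbers. Leaving out 1 mouse at a time, the mitosis median stayed between −1.53 and −0.97 and the replication median between −0.90 and −0.49. Without the mice numbered 4 the medians were −0.78 and −0.53.

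**Figure D2:**
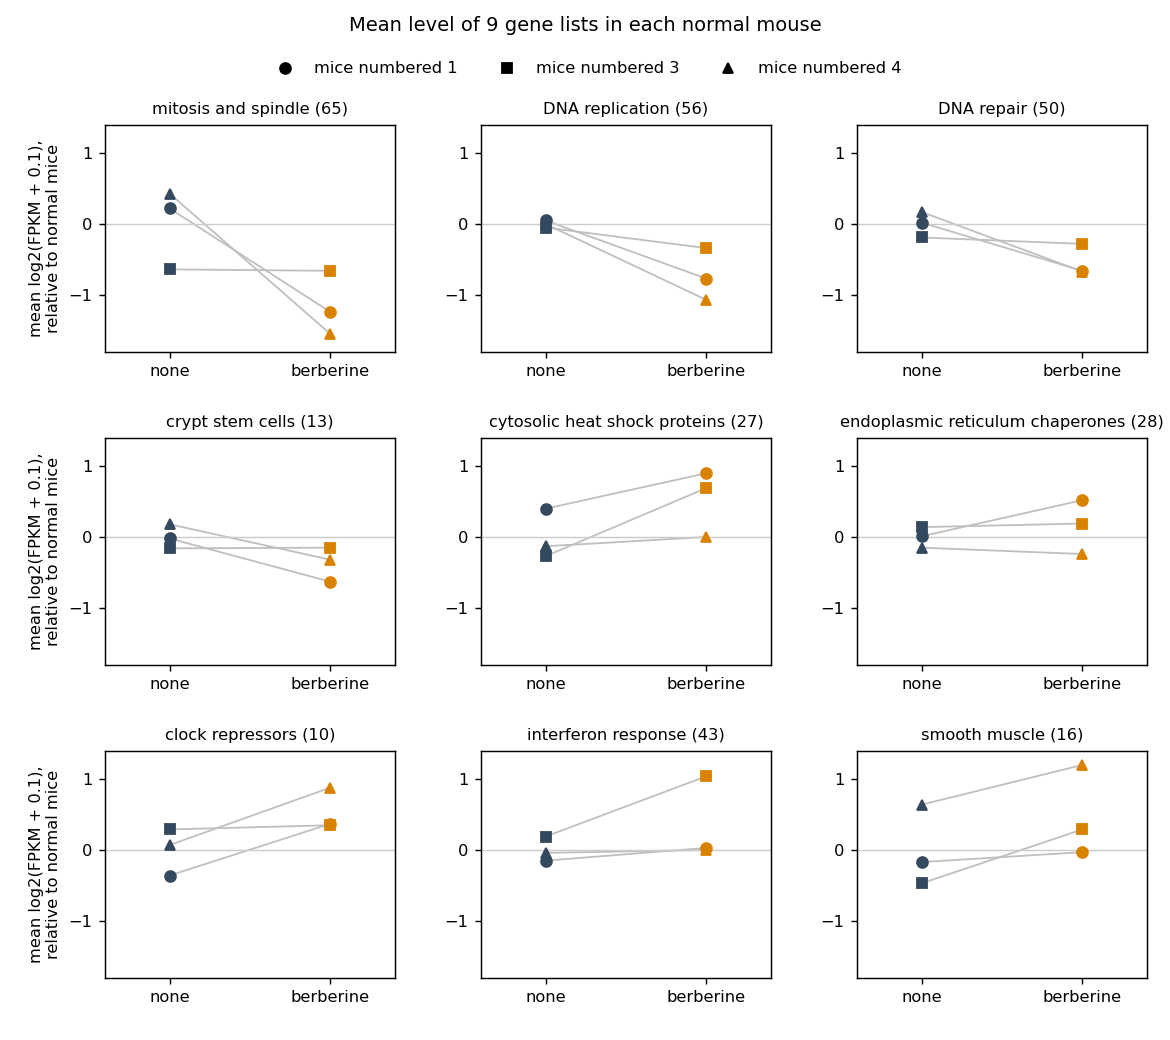
Mean log2(FPKM + 0.1) of 9 gene lists in each normal mouse, set to 0 at the mean of the 3 normal mice. Grey lines join mice with the same number, and the number of genes is given in brackets. All 3 BBR mice lie below all 3 normal mice for DNA replication, at −1.07 to −0.34, whereas mitosis genes differ by −0.03 at the median between the mice numbered 3.

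Of the 50 DNA repair genes 2 met the limit, both lower. The median of this list was 0.01 between the mice numbered 3, against −0.56 and −0.64 for the numbers 1 and 4. Brca1, which directs repair of broken DNA by recombination, was at 1.44, 1.06 and 1.28 FPKM without BBR and at 0.45, 0.46 and 0.28 FPKM with it (−1.47, SE 0.52). Blm, a helicase of the same pathway, was at 0.91, 0.77 and 0.86 FPKM and at 0.4, 0.42 and 0.35 FPKM (−0.95, SE 0.43). Both were lower in every BBR mouse. Mrnip, which interacts with the DNA break sensor complex, had the smallest P among lower genes with a mean of at least 1 FPKM and no overlap, at 4.06, 3.52 and 2.2 FPKM against 0.86, 1.32 and 1.32 FPKM (−1.39, SE 0.32). Gpsm2, which orients the mitotic spindle, was next, at 19.97, 16.75 and 20.27 FPKM against 9.02, 10.43 and 12.24 FPKM (−0.85, SE 0.20). Haspin, a kinase of mitotic chromosomes, stood seventh in that order, at 2.60 ± 0.0764 and 0.960 ± 0.308 FPKM (SD, n = 3 each). Without BBR mouse 4 Brca1 no longer met the limit, at −1.28, and Blm lost it without any 1 mouse, at −1.01 to −0.89.

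Cell type markers of the crypt showed a smaller difference in the same direction. Of 13 tested stem cell genes 11 were lower, with a median of −0.42, and 0 passed P. Lgr5, the receptor that marks crypt stem cells, was at 0.87, 1.41 and 1.27 FPKM and at 0.54, 0.99 and 0.47 FPKM with BBR, and the groups overlapped. The 22 colonocyte genes had a median of −0.12, the 14 goblet cell genes of −0.10 and the 16 smooth muscle genes of 0.55. With 1 mouse left out these medians ran from −0.22 to −0.01, from −0.29 to 0.11 and from 0.18 to 0.78. In bulk tissue, fewer dividing cells and less of these RNAs per cell cannot be told apart. The part of the smooth muscle values in the lower crypt values was not tested. Their mean log2 level, relative to the normal mice, overlapped between the groups, at −0.17, −0.47 and 0.64 without BBR and at −0.03 and 0.29 in BBR mice 1 and 3, with the highest value in BBR mouse 4.

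The promoters of these genes are shown for the sequence elements they carry. Mitotic genes are known to be repressed in resting cells through the cell cycle homology region TTTGAA and activated through CCAAT boxes. In the RefSeq promoter set (GRCm38.p6, 250 bases before to 50 after a gene's start, the first listed start of each gene, both strands), TTTGAA was found in 37 of 53 mitosis genes (69.8%), in 8 of 46 replication genes (17.4%) and in 12.7% of 12160 tested genes. CCAAT was found in 39 of the 53 (73.6%) and in 38.6% of all. The E2F forms TTTCCCGC and TTTGGCGC were found in 8 (17.4%) and 7 (15.2%) of the 46 replication genes, against 1.88% and 0.872% of all. These matches describe the members and were not tied to the values measured here. Below are the 250 bases before the start of Cdk1 (chr10:69352913-69353162, minus strand), Espl1 (chr15:102296043-102296292, plus strand) and Mcm10 (chr2:5012792-5013041, minus strand), 5′ to 3′, with TTTGAA and CCAAT in either orientation in capitals for Cdk1 and Espl1, and CCAAT alone, the element found there, for Mcm10.
Cdk1: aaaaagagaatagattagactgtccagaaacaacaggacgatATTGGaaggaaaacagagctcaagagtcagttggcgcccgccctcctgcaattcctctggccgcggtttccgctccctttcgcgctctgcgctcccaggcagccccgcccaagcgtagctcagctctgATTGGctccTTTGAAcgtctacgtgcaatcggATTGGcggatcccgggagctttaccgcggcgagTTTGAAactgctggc
Espl1: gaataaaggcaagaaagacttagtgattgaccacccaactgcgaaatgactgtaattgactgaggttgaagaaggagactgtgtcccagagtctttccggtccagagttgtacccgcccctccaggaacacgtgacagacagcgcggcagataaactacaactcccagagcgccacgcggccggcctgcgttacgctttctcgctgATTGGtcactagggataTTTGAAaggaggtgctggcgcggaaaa
Mcm10: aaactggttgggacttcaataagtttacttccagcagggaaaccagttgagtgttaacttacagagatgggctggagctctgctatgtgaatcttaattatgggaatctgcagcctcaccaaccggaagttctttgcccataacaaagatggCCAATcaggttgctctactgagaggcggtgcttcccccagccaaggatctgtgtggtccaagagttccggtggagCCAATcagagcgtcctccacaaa
In Cdk1 a TTTGAA begins 15 bases before the start and in Espl1 27 bases before it, each with a CCAAT box further upstream.

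Histone genes of the replication-dependent clusters were also lower. This list was drawn up by symbol after their values were seen, and it has no test. Of 55 tested genes 43 were lower with BBR, with a median of −0.67, and 7 of these had P of at most 0.05. All 6 linker histone H1 genes were lower, 4 of them with such a P, as were 14 of 15 H2A genes, with 0. Of the other families 9 of 12 H2B, 7 of 11 H3 and 7 of 11 H4 genes were lower. With 1 mouse left out the median of all 55 ran from −0.98 to −0.38. H1f4 was at 6.15, 8.32 and 3.91 FPKM in normal mice and at 0.95, 1.19 and 1.79 FPKM with BBR (−2.12, SE 0.53). H3c11, an H3 gene, was at 3.87, 1.79 and 2.34 FPKM and at 0.7, 0.65 and 0 FPKM (−2.75, SE 0.68). Both genes were separated between the groups. Without BBR mouse 4 the difference of H3c11 was −1.77, and it still met the limit. Histone genes form families of near-identical copies, so reads may have been divided among them. Their messages lack a poly(A) tail, and labels and methods name different library kits.

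A brush border transporter was among the 10 lower genes with the smallest unadjusted P. Slc9a3, the sodium-proton exchanger of the colonocyte brush border, was at 84.75, 127.94 and 37.51 FPKM in normal mice and at 28.48, 20.66 and 22.34 FPKM in those receiving BBR (−1.65, SE 0.42). Of the 35 colonocyte ion and water transport genes it was the only one that met the limit, and the list's median was −0.05. Cpt1a, which admits fatty acids to mitochondria, was at 79.1 ± 2.25 and 55.0 ± 7.87 FPKM (SD, n = 3 each), without overlap, and met the limit in the 6 mice alone.

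Other lower genes named by their P were Ly6g6c, a GPI-anchored surface protein, at 5.40 ± 0.807 and 1.22 ± 0.546 FPKM, Hyal2, a hyaluronidase, at 20.5 ± 3.65 and 12.9 ± 2.63 FPKM, and Nuak2, an AMPK-related kinase, at 18.2 ± 1.85 and 10.8 ± 2.08 FPKM (SD, n = 3 each). The groups did not overlap for any of them. Dhrs3, which reduces retinal, was at 20.56, 17.81 and 18.92 FPKM and at 7.09, 13.22 and 10.65 FPKM (−0.92, SE 0.36). Fos, an immediate early transcription factor, was at 372.79, 61.89 and 151.54 FPKM in normal mice and at 30.75, 43.75 and 80.65 FPKM with BBR (−1.67, SE 0.56). Its groups overlapped, and normal mouse 1 was the highest. Normal mouse 1 was also the highest for Egr1, another immediate early factor, at 260.63 FPKM against 2.03 to 11.62 FPKM in the other 5. Without normal mouse 1 the difference of Fos was −1.02, and without BBR mouse 1 −1.35, and neither met the limit. Of 28 immediate early genes, Fos and Gadd45b were lower and Klf6 higher at P of at most 0.05. Gadd45b lost the limit without normal mouse 1, normal mouse 3 or BBR mouse 1, at −0.65 to −0.53, and Klf6 without normal mouse 1, normal mouse 3, BBR mouse 1 or BBR mouse 4, at 0.38 to 0.51. Dhrs3 lost it without normal mouse 1, normal mouse 4 or BBR mouse 1, at −0.93 to −0.68.

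**Figure D3:**
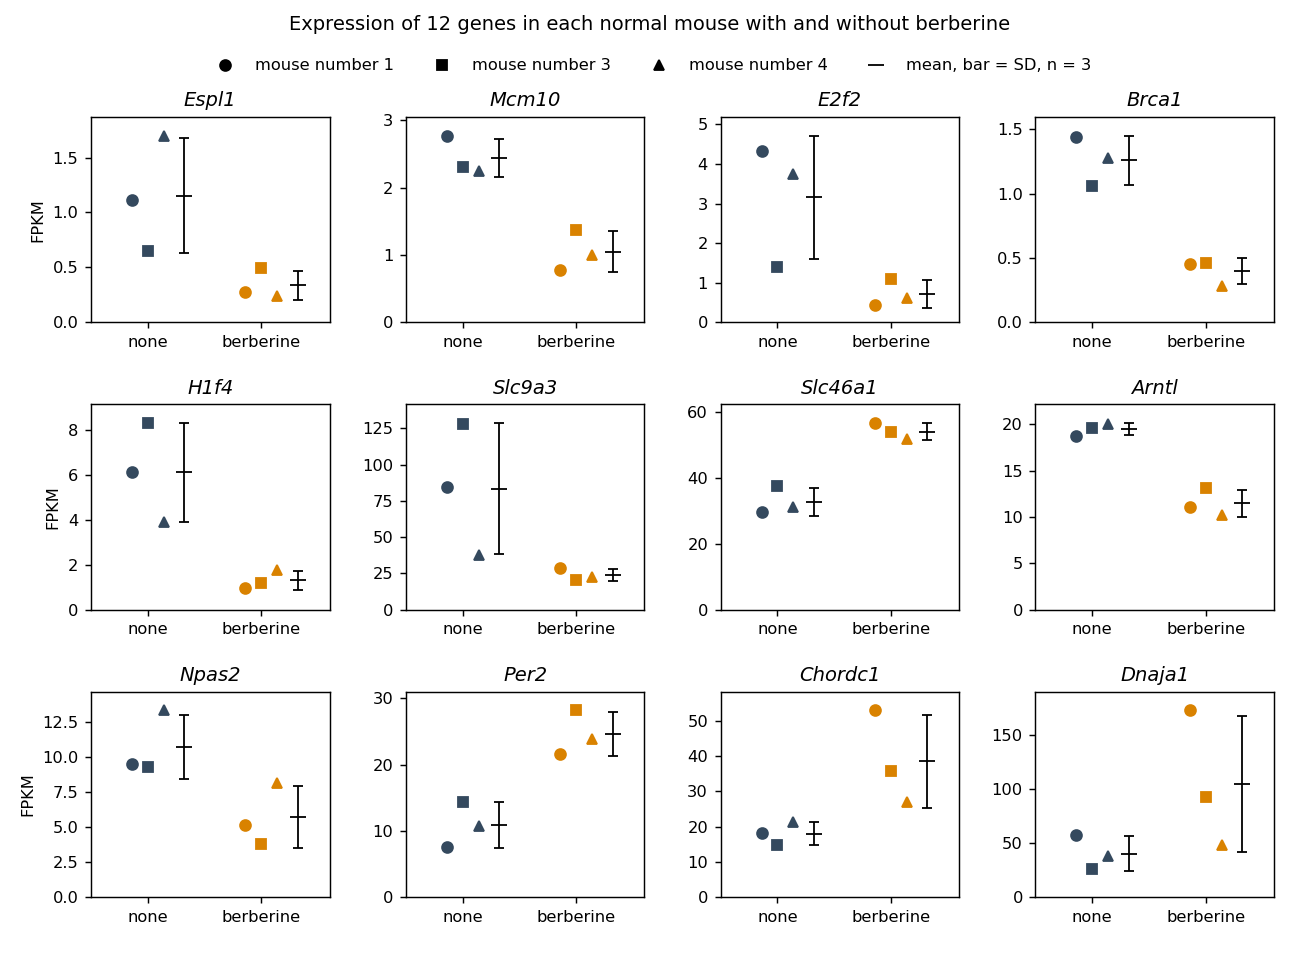
FPKM of 12 genes in the normal mice (dark) and the normal mice receiving BBR (orange), with 1 symbol per mouse number and the mean with its SD (n = 3) beside them. Axes start at 0. The groups are separated in 11 panels and overlap for Dnaja1, where BBR mouse 4, at 48.26 FPKM, lies below normal mouse 1, at 57.11 FPKM.

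Cytosolic heat shock proteins had higher values with BBR. These chaperones hold and refold proteins, and heat shock factor 1 switches on their genes through repeats of GAA and its inverse. All 27 tested members had a higher mean with BBR, with differences of 0.05 to 1.53 and a median of 0.40. At P of at most 0.05, 2 members were higher, and 5 (18.5%) in the 6 mice alone. The groups did not overlap for 3 members (11.1%). Chordc1, a co-chaperone of HSP90, was at 18.19, 14.63 and 21.19 FPKM in normal mice and at 52.94, 35.67 and 27.03 FPKM with BBR (1.06, SE 0.33). Dnaja1, an HSP40 that delivers clients to HSP70, was at 57.11, 25.6 and 37.99 FPKM and at 172.72, 92.89 and 48.26 FPKM (1.26, SE 0.41). Both were highest in BBR mouse 1 and lowest among treated mice in BBR mouse 4. Without BBR mouse 1 the difference of Dnaja1 was 0.81, still within the limit.

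The inducible HSP70 genes did not separate the groups. Hspa1a was at 137.75, 4.48 and 10.41 FPKM without BBR and at 81.16, 91.29 and 14.2 FPKM with it, and Hspa1b, its near-identical copy, between 9.63 and 240.48 FPKM over the 6 mice. Normal mouse 1 was the highest for both. Hspa8, the constitutive HSP70, was at 1552.95, 1334.31 and 791.15 FPKM and at 4262.78, 2210.91 and 967.67 FPKM and overlapped. By mouse number the list's median difference was 0.37, 0.65 and 0.14, and the mean list level of BBR mouse 4, at 0.00, lay below that of normal mouse 1, at 0.40. Endoplasmic reticulum chaperones had a median of 0.16, with 22 of 28 higher, and −0.01 without BBR mouse 1. Dnajb9 was the only one past P, at 32.14, 33.87 and 39.85 FPKM and at 83.06, 45.72 and 50.66 FPKM (0.71, SE 0.31). It no longer met the limit without BBR mouse 1, at 0.45, normal mouse 1, at 0.65, or normal mouse 3, at 0.69. The 16 chaperonin and mitochondrial chaperone genes had a median of −0.05 and 0 calls, and of −0.20 to 0.17 with 1 mouse left out.

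The letters GAANNTTC, a head to head pair of heat shock units, were found in 10 of 22 promoters of the cytosolic list (45.5%) and in 5.85% of all tested genes, in the same windows. TTCNNGAA, the tail to tail pair, was in 3 of 22 (13.6%) and in 6.86% of all. The genes past P both hold the first, as do Hspa1a, Hspa1b and other members that did not meet the limit. These matches describe the members and were not tied to the values measured here. Shown are the 250 bases before the start of Dnaja1 (chr4:40722218-40722467, plus strand, GRCm38.p6), with the match in capitals 124 bases before the start, and 22 bases across the start of Chordc1 (chr9:18292260-18292281, plus strand), where overlapping matches of both kinds in capitals begin 4 bases before it.
Dnaja1: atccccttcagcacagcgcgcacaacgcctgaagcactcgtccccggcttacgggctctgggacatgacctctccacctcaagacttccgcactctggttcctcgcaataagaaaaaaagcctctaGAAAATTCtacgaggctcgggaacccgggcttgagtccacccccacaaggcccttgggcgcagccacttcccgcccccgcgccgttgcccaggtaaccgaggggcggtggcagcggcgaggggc
Chordc1: ccgGAACGTTCGGGAAAATTCC
Both runs read 5′ to 3′ on the strand of the gene.

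Clock genes differed in both directions. The paper reports day-night rhythms for many of them in colon samples. The labels give a sampling day and no hour, and the part of the hour was not tested. Npas2, a clock activator that pairs with Arntl, was at 9.47, 9.28 and 13.31 FPKM in normal mice and at 5.13, 3.81 and 8.14 FPKM with BBR (−0.95, SE 0.29). Arntl, the core activator, was at 18.79, 19.65 and 20.05 FPKM and at 11.06, 13.12 and 10.24 FPKM, a difference of −0.77 (SE 0.43). It met the unadjusted limit with the replicate block and in the 6 mice alone, and not in the fit over 12 mice. Clock was at 11.9 ± 1.08 and 11.9 ± 1.6 FPKM (SD, n = 3 each). Arntl and Npas2 were separated between the groups, whereas Clock overlapped.

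On the repressor side, 9 of 10 genes had a higher mean, with a median of 0.53, and 1 passed P. Per2, which blocks the activators in the nucleus, was at 7.51, 14.41 and 10.77 FPKM in normal mice and at 21.62, 28.17 and 23.89 FPKM in those receiving BBR (1.21, SE 0.47). All treated mice lay above all untreated mice. Per2 no longer met the limit without normal mouse 1, normal mouse 4, BBR mouse 3 or BBR mouse 4, at 0.96 to 1.22. Nr1d2, a repressor of Arntl, did not overlap either, at 18.69, 31.67 and 21.41 FPKM and 36.15, 31.7 and 45.62 FPKM, and met the limit in the 6 mice alone. Per1, Cry1, Cry2, Per3 and Nr1d1 overlapped, with differences of 0.38, 0.73, 0.08, 0.73 and −0.22. The clock output factor Dbp was at 61.4 ± 29.5 and 83.6 ± 37.6 FPKM and Tef at 32.5 ± 12.2 and 51.3 ± 4.59 FPKM (SD, n = 3 each), both with overlap. Between the mice numbered 3, the repressor median was 0.00, against 0.63 and 0.54 for the numbers 1 and 4.

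Among genes with a mean of at least 1 FPKM and no overlap, the 10 higher ones with the smallest unadjusted P were Chordc1 and 9 genes outside these lists. Ifit1bl2, of the interferon-induced IFIT family, was at 2.57, 3.73 and 2.4 FPKM in normal mice and at 11.26, 10.08 and 10.83 FPKM with BBR (1.88, SE 0.45). In the 6 mice alone its limma adjusted p was 0.335. Coq10b, a coenzyme Q binding protein, was at 32.83, 54.15 and 27.74 FPKM and at 98.34, 59.6 and 70.28 FPKM (1.02, SE 0.28). Zfp809, which represses retroviral elements, was at 7.24 ± 0.531 and 11.2 ± 1.12 FPKM, Uba6, a ubiquitin-activating enzyme, at 2.61 ± 0.289 and 4.57 ± 0.881 FPKM, and Nat8f5, of the N-acetyltransferase 8 family, at 0.310 ± 0.223 and 1.77 ± 0.795 FPKM (SD, n = 3 each). Rasa2, a Ras GTPase activating protein, Ahctf1, a nuclear pore assembly factor, Pdp1, the phosphatase that activates pyruvate dehydrogenase, and Rbm4b, an RNA-binding protein, followed with differences of 0.64, 0.63, 0.80 and 0.58. Without BBR mouse 1 these last 4 were at 0.43, 0.51, 0.53 and 0.50 and no longer met the limit.

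Interferon response genes differed between the treated mice. Of 43 interferon response genes 38 had a higher mean, with a median of 0.32 and 0 past P. BBR mouse 3 stood out, with a mean list level of 1.04, against 0.03 and 0.00 in BBR mice 1 and 4. Without it the median was −0.04. Some immune cell lists stood high in the same mouse. Its mean level was 1.09 for MHC class II, against −0.16 and −0.62 in BBR mice 1 and 4, 0.71 for T and NK cells, against −0.07 in both, and 0.76 for mast cells, against −0.23 and −0.98. For B and plasma cells it was 0.71, against −0.50 and −0.60, although normal mouse 4 was higher still, at 1.09. Macrophage genes, at 0.08, lay below normal mice 3 and 4, at 0.15 and 0.14, and granulocyte genes, at −0.05, below normal mouse 4 and BBR mouse 4, at 0.51 and 0.33. The part of these cells in the interferon values was not tested. Isg15, an interferon-induced ubiquitin-like protein, was at 65.26 FPKM in that mouse and at 11.18 to 30.05 FPKM in the other 5. Il6 and Tnf, inflammatory cytokines, were low in all 6 mice. Il6 was at most 0.08 FPKM, Tnf was at 0.25 to 0.4 FPKM, and the 30 cytokine and NF-kappaB target genes had a median of −0.08 with 0 calls.

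Iron, zinc and calcium handling gave few differences. Slc46a1, the proton-coupled folate and heme transporter, was at 29.54, 37.56 and 31.03 FPKM in normal mice and at 56.66, 53.85 and 51.74 FPKM with BBR (0.73, SE 0.26), the only one of 21 iron, heme and copper genes past P. Without normal mouse 1 it was at 0.66 and no longer met the limit. Slc34a2, a phosphate transporter, was at 39.28, 20.03 and 36.7 FPKM and at 13.05, 17.37 and 15.69 FPKM, and Trpm6, a magnesium channel, at 68.97, 51.08 and 52.98 FPKM and at 28.81, 33.77 and 42.36 FPKM. Neither overlapped between the groups, and both met the limit in the 6 mice alone. S100g, a calcium-binding protein, overlapped, at 143.07, 63.09 and 110.67 FPKM and 377.01, 119.29 and 194.52 FPKM. All 4 metallothioneins, zinc-binding proteins, had higher means, at a median of 1.04, with 0 calls, and of 0.51 to 1.99 with 1 mouse left out. Mt1 ranged from 123.7 to 1235.23 FPKM in normal mice and from 620.1 to 3718.76 FPKM in those receiving BBR, with the lowest value of each group in the mouse numbered 4.

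RNAs of pathways for which BBR is known in cultured cells had medians near 0 that depended on the mice. These RNA levels do not measure the activity of complex I or AMPK, which was not measured here. The 37 complex I subunits had a median of 0.08 and the 39 subunits of complexes II to V of 0.04, with 0 calls in both. With 1 mouse left out the medians ran from −0.27 to 0.44 and from −0.30 to 0.36. Of 18 AMPK subunits and partners 0 passed P, and the catalytic subunit gene Prkaa1 was at 17.4 ± 0.799 and 18.9 ± 1.93 FPKM (SD, n = 3 each). The 25 genes of cholesterol metabolism had a median of −0.12 and 0 calls, and of −0.28 to 0.07 with 1 mouse left out. Of 57 drug-metabolizing genes 1 was called, Ces1g, a carboxylesterase, which was lower (−1.19, SE 0.45). It no longer met the limit without normal mouse 1, at −0.78, BBR mouse 1, at −1.13, or BBR mouse 4, at −0.88. The 12 tested Wnt ligands and R-spondins, growth factors of the crypt base, had a median of −0.09 and 0 calls, and of −0.47 to 0.19 with 1 mouse left out. Wnt6 was at 0.63 ± 0.34 and 0.5 ± 0.147 FPKM (SD, n = 3 each).

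Whether BBR acted alike in colitis was asked with the interaction of BBR and colitis, which shares no mouse between its arms. By limma 0 genes had an adjusted p under 0.05 for it, and 371 (2.42%) had P of at most 0.05. With the replicate block these were 779, with a block for the mice numbered 4 they were 671, and without normal mouse 1 they were 224, each with 0 adjusted calls. Mitosis genes were lower with BBR in both settings, with medians of −1.21 in normal and −1.84 in colitis mice, as were replication genes at −0.69 and −0.71. The colitis values rested in good part on colitis mouse 2 receiving BBR, whose mean mitosis level was −3.81, against −0.86 and −1.32 in the other treated colitis mice. Without it, a setting added after the values were seen, the colitis medians were −0.84 and −0.18, and without colitis mouse 4 the replication median was −0.34. No mitosis or replication gene had an interaction P of at most 0.05. Of 55 histone genes 8 did, with medians of −0.67 and −0.22, the latter from −0.62 to 0.32 with 1 colitis mouse left out. The histone list was drawn up after its low values in normal mice were seen. Those values enter the interaction, so the choice favoured this count. The heat shock median was 0.40 in normal and 0.07 in colitis mice, the interferon median 0.32 and −0.61, and the clock repressor median 0.53 and 0.44, with 0, 5 and 0 interaction P values at that limit. The interferon median in normal mice was −0.04 without BBR mouse 3. With 1 colitis mouse left out the colitis medians ran from −0.17 to 0.43 for heat shock, from −1.14 to −0.24 for interferon and from −0.15 to 1.03 for clock repressors. Of 10 MHC class II genes 6 had an interaction P at that limit, with medians of 0.08 in normal and −1.35 in colitis mice, and of 47 chemokine and receptor genes 9 did, with medians of 0.12 and −0.88. Both colitis medians stayed below 0 whichever colitis mouse was left out, and with 1 of the 6 mice without colitis left out the normal medians ran from −0.37 to 0.41 and from 0.00 to 0.24. Slc9a3 had a log2 difference of −1.65 in normal and 0.49 in colitis mice, and H1f4 of −2.12 and 0.62, and the interaction of both met the unadjusted limit. Both were named for their small P in normal mice, and that choice favours a small interaction P. Of the 638 genes higher without overlap in normal mice, 12 were so in colitis mice too (1.88%, against 1.42% of all tested genes), and 34 were lower without overlap there (5.33%, against 5.66% of all). The 12 were 5.53% and the 34 were 3.92% of the genes so separated in colitis mice. Of the 836 lower genes 52 were also lower there (6.22%, against 5.66% of all) and 14 were higher (1.67%, against 1.42% of all), which were 6.00% and 6.45% of those separated in colitis mice. These shares lay near those of all genes.

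**Figure D4:**
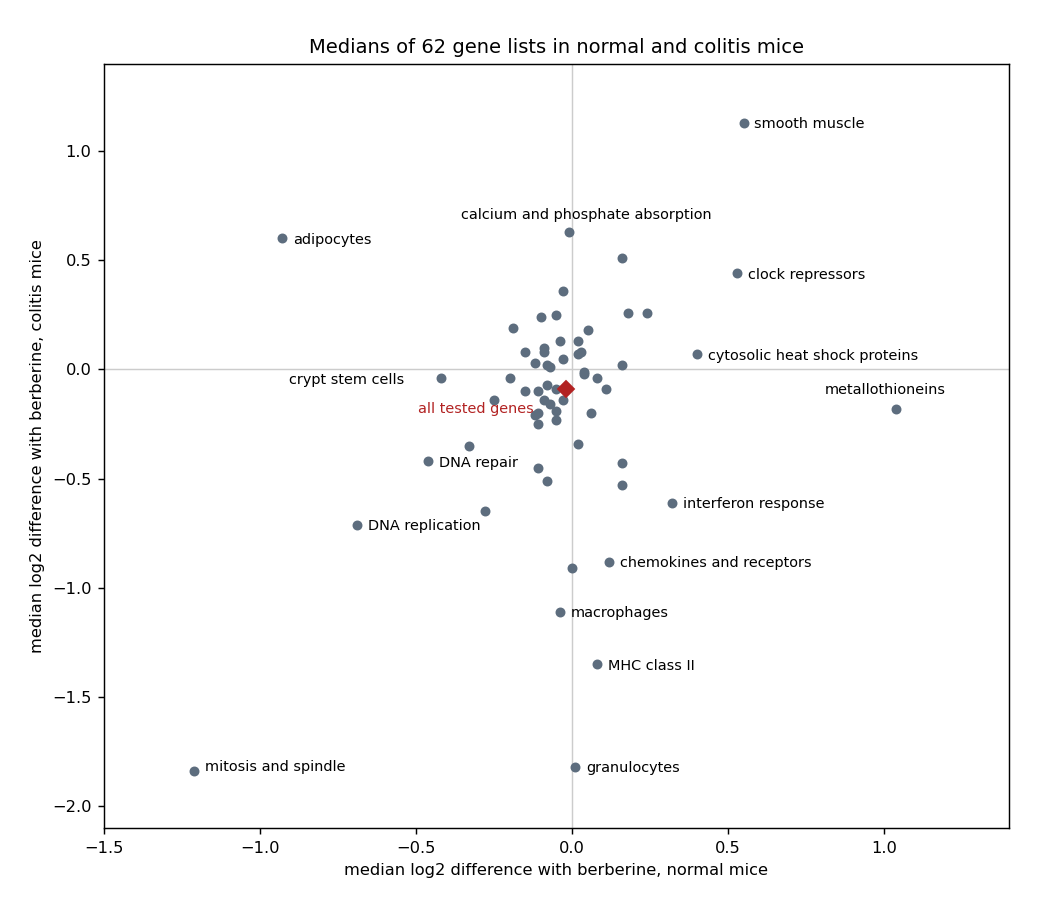
Median log2 difference with BBR of 62 gene lists in normal mice (horizontal axis) and in colitis mice (vertical axis), 1 point per list, with 3 mice in each of the 4 groups. The red diamond marks all tested genes, at −0.02 and −0.09. Mitosis genes lie at −1.21 and −1.84, the latter −0.84 without colitis mouse 2 receiving BBR, and interferon response at 0.32 and −0.61, the former −0.04 without BBR mouse 3.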

How the data were processed

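The authors filtered reads with SOAPnuke, aligned them with Bowtie2 2.2.5 and estimated expression with RSEM 1.2.12 on mm9, and deposited 1 value per gene and mouse. The deposited values were read as FPKM from their range. TPM was not excluded. The table holds 17734 genes and no read counts, and nothing was rescaled. Genes with a mean of at least 0.1 FPKM over 12 mice (15315) were fitted as log2(FPKM + 0.1) in limma 3.58.1 (R 4.3.3), with 1 mean per group and a trended empirical Bayes spread, over all 4 groups. P values were Benjamini-Hochberg adjusted over these genes. Log2 differences on this scale understate the change of low genes. Mice were grouped by their labels. Nothing states that samples were processed apart, so P values measure the spread between these mice.

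Members, the 62 lists and the tests were chosen with earlier results of these data known. Lists are given by counts and medians. Named genes were the 10 per direction with the smallest P of at most 0.05, no overlap and a mean of at least 1 FPKM over the 6 mice, the leading and called members of the lists, and genes the study measured. Some genes that this rule names are not reported here. Promoter lists were chosen after values were seen, since no list had the 30% of called members first asked for.

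Deviations of same-numbered mice from their group means correlated across genes at 0.29, 0.11 and 0.66 for the numbers 1, 3 and 4, all over 0.1. Crosswise, normal mouse 1 with BBR mouse 3 stood at 0.37 and normal mouse 3 with BBR mouse 1 at 0.46. Both exceeded the same-numbered values of 0.29 and 0.11. The values thus set the mice numbered 4 apart, and did not pair mouse 1 with 1 or mouse 3 with 3. Comparisons by mouse number follow the labels. Sequences are RefSeq's. Figures and tables used Python 3.11.15, NumPy 2.4.6, pandas 2.3.3 and matplotlib 3.10.9.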

Additional observations from a re-analysis of the deposited data

Results flagged for a closer look

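Among the named genes and list members, 6 had all BBR mice on one side of the normal mice and all colitis mice receiving BBR on the opposite side of the colitis mice. Npas2, the clock activator, had a log2 difference of −0.95 with BBR in normal mice and 0.62 in colitis mice. Gadd45b, a stress-induced gene, had −0.75 and 0.59. Abcc4, an efflux pump, had −0.46 and 1.04, and H1f6, a linker histone gene near the detection floor, −1.54 and 1.26. In the other direction, Zfp809 had 0.62 and −0.19 and Trpm7, a magnesium and calcium channel, 0.31 and −0.31. The 6 were picked for these opposite directions, so the difference was not tested independently of the choice. Over all tested genes, 34 of the 638 higher without overlap in normal mice were lower without overlap in colitis mice. They were 5.33%, against 5.66% of all. Conversely, 14 of the 836 lower genes were higher there (1.67%, against 1.42% of all). These shares lay near those of all genes, and whether the 6 exceed that background was not tested.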

How the results depend on the processing

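The count of adjusted calls stayed at 0 in 16 of 17 other settings, and was 1 in the fit of the 6 normal mice alone. Leaving out each mouse in turn gave 0 in every case. The 208 genes with P of at most 0.05 became 361 after quantile normalization, 752 in the 6 normal mice alone, 372 with a block for the mice numbered 4 and 392 with the replicate block, which shared 191 genes with the 208. Without 1 mouse the count was 94 to 261, lowest without BBR mouse 1 and 116 without normal mouse 1. The interaction stayed at 0 adjusted calls throughout. Of 57 named genes with that P, none changed direction in 956 refitted values, and 191 of these values no longer met the limit. The 57 were picked by P in these same data. Settings that changed only the filter, the spread or the block left each difference as it was, so no direction could change there. The block took the call from 1 of the 57, Fah, and 18 genes kept it in every setting that tested them. The median of the interferon list became −0.04 without BBR mouse 3 and that of the endoplasmic reticulum chaperones −0.01 without BBR mouse 1. With 3 mice a group the fits made few calls. The fit of the 6 normal mice alone, which shares no spread with colitis mice, put 4.91% of genes at P of at most 0.05. A limit of 0.05 passes about that share where no gene differs, and the 208 genes of the main fit were 1.36%. Low genes rest on few reads, and their log2 differences depend on the pseudocount.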

Other observations

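Entpd4, a Golgi nucleotidase, was the 1 gene past the adjusted limit when the 6 normal mice were fitted alone (limma adjusted p = 0.0444). It was chosen after its values were seen. It was at 1.24, 1.25 and 1.02 FPKM in normal mice and listed at 0 in all 3 normal mice receiving BBR. The mouse genome holds a near-identical copy of this gene, so reads may have been divided between them.

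Among transporters and enzymes outside the named lists, also chosen after their values were seen, Abcg5, which exports sterols, was at 4.48, 7.23 and 4.78 FPKM without BBR and at 15.98, 16.16 and 15.51 FPKM with it (log2 difference 1.55). Enpep, the brush border aminopeptidase A, was at 1.97, 1.74 and 2.58 FPKM and at 8.45, 7.56 and 6.26 FPKM (log2 difference 1.78). The groups did not overlap for either of them, and both met the unadjusted limma limit with an adjusted p of 1.00.

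Fat tissue genes stood out in 1 library. Adipoq, which fat cells secrete, was at 13.05 FPKM in normal mouse 4, at 0.2 and 0.07 FPKM in normal mice 1 and 3 and listed at 0 in all 3 mice receiving BBR. The 11 adipocyte genes had a median of −0.93, and of −0.24 without the mice numbered 4.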
